A study of Sus scrofa with 16 samples.

Results

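The solute carrier (SLC) genes were followed in the small intestine of preterm piglets on an Affymetrix porcine expression array. A gene was taken when a probe set was annotated with its symbol alone and that symbol began with SLC and a digit. There were 120 such genes, on 176 probe sets, out of 6765 genes that had a probe set of their own. Each gene is represented by the probe set with the highest mean over the 16 arrays, and every level below is a normalised log2 value of that probe set.

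The Landrace x Large white x Duroc piglets were born by caesarean at day 105 of gestation, to 2 sows. They were fed by vein for 3 days, with little feed into the gut, and then on formula for 2 days. One arm (11 piglets in the study) received ampicillin, gentamycin and metronidazol, by mouth and by intramuscular injection, from birth. The other arm (13 piglets) received saline. It is called control here and untreated in the sample names. Tissue of a proximal and a distal segment of the small intestine was taken on day 5. Each combination of arm and segment has 4 arrays. Taking the number in each sample name for an animal, the arrays come from 9 animals, 7 of which gave both segments. Animals 85, 86, 87, 95 and 98 had antibiotics, and animals 83, 88, 89 and 92 were controls. The piglets were preterm and formula-fed in both arms, so no group shows term gut. A p-value below measures the spread between these arrays only.

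SLC proteins move sugars, amino acids, peptides, ions, metals, vitamins and nucleotides across membranes. In the gut, an apical set on the enterocyte brush border takes nutrients from the lumen, often driven by sodium or proton gradients, and a basolateral set releases them to the blood. Other members sit in the inner mitochondrial membrane (most of the SLC25 family) or in the Golgi and endoplasmic reticulum (many of the SLC35 family).

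Of the 120 genes 25 lay at the array floor, here meaning under 2.5 on all 16 arrays, where the lowest value of the table is 2.14. A further 28 were dim, and 67 exceeded 5 on 4 or more arrays, the filter used here, and were tested. Of the tested genes 57 were above 5 on every array. The probe sets are made of short oligonucleotides near the 3′ end of a transcript, so a gene at the floor was not detected by that probe set and need not be silent. The floor held 13 genes with exactly 1 value on all 16 arrays, among them 4 that serve uptake in the gut. These 4 were SLC9A3, the sodium/hydrogen exchanger of the brush border, SLC34A2, a phosphate transporter, SLC6A14, an amino acid transporter, and SLC29A1, a nucleoside transporter. Also at the floor were genes best known from other organs, such as SLC10A1 (bile acid uptake in liver), SLC22A2 and SLC22A8 (organic ion transport in kidney), SLC5A5 (iodide uptake in thyroid), SLC2A4 (the insulin-responsive glucose transporter of muscle and fat) and SLC45A2 (melanosomes). The others there were SLC17A1, SLC1A3, SLC1A6, SLC23A2, SLC25A30, SLC25A48, SLC25A51, SLC27A1, SLC2A12, SLC39A2, SLC41A1, SLC4A2, SLC6A4, SLC8A1 and SLC9A4.

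By substrate class the counts were as follows. All but 4 of the 21 SLC25 genes, classed here by family as mitochondrial carriers, were tested, with 3 at the floor and 1 dim. Of 10 SLC35 genes, classed here by family as transporters of nucleotide sugars and other Golgi cargo, 8 were tested and none lay at the floor. Of 19 genes for amino acids and peptides 10 were tested, 6 were dim and 3 lay at the floor. Sugar transporters numbered 15, of which 9 were tested, 3 dim and 3 at the floor, and metal transporters 12, of which 8 were tested, 3 dim and 1 at the floor. Of 12 genes for vitamins, choline and nucleosides 6 were tested. Of 9 genes for bicarbonate, chloride and acid-base transport 3 were tested, and of 3 genes for sodium, potassium, calcium and magnesium none. Of 6 genes for bile acids, organic ions and drugs SLC22A5, the carnitine transporter, was the 1 tested.

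**Figure D1:**
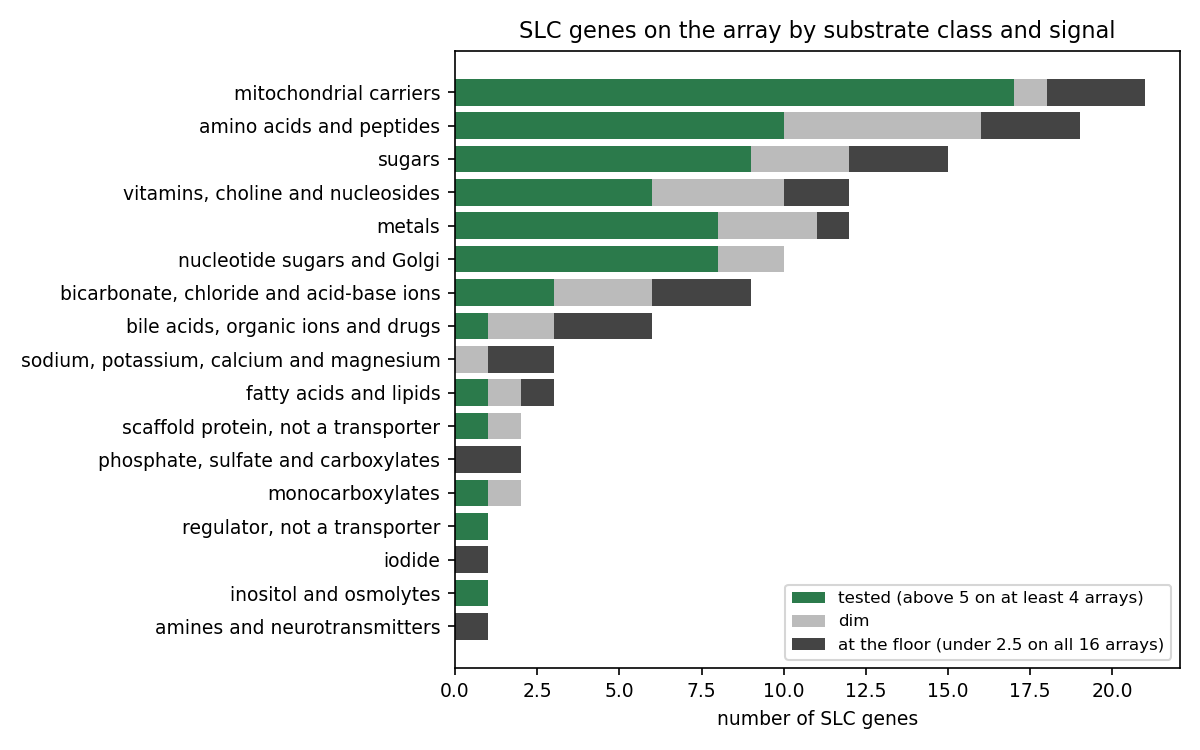
Number of SLC genes (horizontal axis) in each substrate class, split into genes tested (over 5 on 4 or more arrays), dim genes and genes at the array floor (under 2.5 on all 16 arrays). Mitochondrial carriers have 17 tested genes of 21, while both phosphate and carboxylate carriers are at the floor.

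Among the dim genes several had a signal on a few arrays alone. SLC28A3, a nucleoside transporter, was above 5 on 2 arrays and reached 6.79 in proximal tissue. SLC31A2, a copper transporter, reached 6.70 and SLC5A10, a sugar transporter, 5.84, each on 1 distal array. SLC3A2, the heavy chain shared by several amino acid exchangers, lay between 2.26 and 3.30, and SLC4A4, the basolateral sodium bicarbonate cotransporter, between 2.14 and 3.88. SLC23A1, the ascorbate transporter, stayed between 2.14 and 2.89. SLC11A1, a metal transporter of phagocytes, was listed at 1 value (2.42) on 12 of 16 arrays. Such repeats also occur above the filter: SLC44A2, a choline transporter, was listed at exactly 6.55 on 9 arrays and SLC25A14 at exactly 6.72 on 6, so their small spread is partly that of a repeated value.

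Of 44 genes for nutrient uptake listed by name, 26 had a probe set here and 19 were tested. The remaining 18, among them the neutral amino acid transporter SLC6A19, the bile acid transporter SLC10A2 and the iron exporter SLC40A1, had no probe set annotated with that symbol alone and were not analysed here.

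The tissue labels were set against marker genes. All 9 enterocyte markers with a probe set (of 12) were tested and none lay at the floor. The log2 of their summed signal was 18.37 to 18.69 in antibiotics proximal, 17.67 to 18.46 in control proximal, 17.90 to 18.06 in antibiotics distal and 17.80 to 18.44 in control distal tissue. The 2 lowest of all 16 were control proximal arrays 83 (17.67) and 92 (17.78). The sum was taken before the log, so the brightest markers weigh most in it. The marker VIL1 was 12.95 and 13.16 on these 2 arrays and was lowest, at 12.37, on antibiotics proximal array 98. Of 8 leukocyte markers with a probe set (of 9) 4 were tested and CD3E, which defines T cells, lay at the floor. Their summed signal separated the arms: 7.24 to 9.33 on the 8 antibiotics arrays against 10.23 to 12.16 on the 8 control arrays. GATA4, a transcription factor of proximal intestine, was 3.79 to 6.97 on the proximal arrays and 2.28 to 2.80 on the distal ones. FABP6, the bile acid binding protein of the ileum, was 6.64 to 11.03 on the distal arrays and 2.28 to 3.49 on 7 of the proximal ones, but 7.40 on control proximal array 88. Control distal arrays 83 and 88, left out together in 1 alternative, had FABP6 at 11.03 and 10.17, against 7.32 and 6.64 on control distal arrays 89 and 92. Antibiotics distal arrays 85, 86, 87 and 95 had it at 10.64, 7.97, 10.27 and 10.52. In whole tissue, fewer cells of a type and less RNA per cell cannot be told apart.

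The distal and proximal segments were compared first, over both arms. Chloride and anion exchangers of the SLC26 family, the glutamate transporter SLC1A1, the monocarboxylate carrier SLC16A13 and the cystine transporter subunit SLC3A1 were higher in distal tissue, and 3 sugar transporters (SLC2A5, SLC5A1 and SLC2A1) were lower. In all, 9 of 67 SLC genes passed a limma adjusted p of 0.05, 6 higher and 3 lower distally. Over all 11538 tested probe sets 5.52% passed, 3.43% higher and 2.09% lower. At an unadjusted p under 0.05 there were 24 SLC genes (35.8%, against 17.5% of all tested probe sets). The median difference of the SLC genes was 0.06 on the log2 scale (0.02 over all tested probe sets). A higher distal mean was found for 36 of 67 (53.7%), against 52.8% of all tested probe sets. RNA integrity was taken from the GAPDH and actin control probe sets, as the log2 value at the 5′ end less that at the 3′ end. Its means were lower in distal tissue, with overlapping ranges: it was -3.43 ± 0.65 in antibiotics proximal, -3.79 ± 0.89 in control proximal, -4.70 ± 0.90 in antibiotics distal and -4.28 ± 0.46 in control distal tissue (SD, n = 4 each). With it as a covariate 5 of the 9 calls remained (SLC1A1, SLC26A3, SLC26A6, SLC2A5 and SLC5A1), and SLC16A13, SLC26A11, SLC2A1 and SLC3A1 had adjusted p of 0.071 to 0.0814. The share of all tested probe sets that passed in that fit is not given here.

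All 3 tested genes of the class for bicarbonate, chloride and acid-base transport belong to the SLC26 family. They include SLC26A11, a sulfate and anion transporter placed in this class here. All 3 were higher in distal tissue. SLC26A3, the chloride/bicarbonate exchanger whose loss causes congenital chloride diarrhoea, was 11.38, 11.41, 10.95 and 11.42 in control distal animals 83, 88, 89 and 92. With antibiotics it was 10.88, 11.60, 10.90 and 11.72 in distal animals 85, 86, 87 and 95. In proximal tissue it scattered widely, at 7.53, 6.95, 9.42 and 3.32 in controls 83, 88, 89 and 92 and 8.35, 3.72, 3.23 and 5.43 in antibiotics animals 86, 87, 95 and 98. The lowest distal array (10.88) lay above the highest proximal one (9.42), and the distal value was the higher in 7 of 7 animals, by 1.53 to 8.50. The difference was 5.29 (log2, SE 0.77, limma adjusted p = 0.000698, 95% interval 3.66 to 6.92), and 3 of the 8 proximal arrays lay below 5.

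SLC26A6, an anion exchanger of the brush border that also carries oxalate, was dim in proximal tissue (2.72 to 5.14, median 3.83) and just above the filter in distal tissue (5.17 to 6.67, median 5.61). The segments did not overlap, and all 4 control proximal arrays lay below 5. Distal tissue was higher by 1.98 (SE 0.34, limma adjusted p = 0.00272). SLC26A11, a sodium-independent sulfate and anion transporter, ran from 6.25 to 9.13 (median 8.01) in proximal and from 7.52 to 10.72 (median 9.70) in distal tissue, so the segments overlapped. Its difference was 1.61 (SE 0.40, adjusted p = 0.0278), higher distally in 6 of 7 animals. With the animal as a fixed effect the adjusted p was 0.0561. Of the 67 SLC genes 3 (4.48%) had all distal arrays on 1 side of all proximal ones, SLC26A3, SLC26A6 and SLC1A1, where 0.763% of all tested probe sets did.

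Among carriers of amino acids and peptides 8 of 10 had a higher distal mean (52.8% of all tested probe sets did) and 2 passed. SLC1A1 takes up glutamate and aspartate across the brush border. Its control values were 11.01, 10.78, 11.18 and 12.03 in distal tissue of animals 83, 88, 89 and 92 and 9.20, 10.27, 9.68 and 10.20 in their proximal tissue. With antibiotics the distal values were 11.34, 11.32, 11.41 and 12.27 (animals 85, 86, 87 and 95) and the proximal ones 8.67, 8.19, 8.98 and 8.42 (animals 86, 87, 95 and 98). Every distal array lay above every proximal one, and the difference was 2.21 (SE 0.23, adjusted p = 3.13e-05). Its other tested probe set, with a mean of 7.78, gave 1.89.

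SLC3A1, the heavy chain that pairs with SLC7A9 for the uptake of cystine and basic amino acids, was 8.07 to 11.24 (median 9.84) in proximal and 10.52 to 12.51 (median 11.07) in distal tissue. The difference was 1.40 (SE 0.37, adjusted p = 0.0362), with 6 of 7 animals higher distally. Its dimmer probe set had a difference of -0.02 (adjusted p = 0.992), so the call belongs to 1 of its 2 probe sets, and it was lost with the animal as a fixed effect (adjusted p = 0.0825). Its partner SLC7A9 had a difference of 0.06 (SE 0.31, 95% interval -0.59 to 0.72). SLC15A1, the proton-coupled peptide transporter, had a difference of 0.40 (95% interval -0.21 to 1.01), and SLC7A7, the basolateral light chain for basic amino acids, 0.57 (-0.08 to 1.22). SLC1A5, a neutral amino acid exchanger, was at -0.51 (-1.20 to 0.18). None of these 4 passed.

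The sugar transporters went the other way, with 6 of 9 means lower in distal tissue, 3 of them past the threshold, and a median of -0.80. SLC2A5, the fructose transporter of the brush border, was 5.35, 8.47, 6.95 and 6.94 in control proximal animals 83, 88, 89 and 92 and 3.94, 7.10, 4.11 and 3.59 in their distal tissue. In antibiotics animals it was 8.93, 9.14, 9.09 and 7.58 proximally (86, 87, 95 and 98) and 3.41, 2.5, 4.73 and 4.56 distally (85, 86, 87 and 95). Distal tissue was the lower in 7 of 7 animals. Across both arms SLC2A5 fell by 3.56 (SE 0.54, adjusted p = 0.000943). In the antibiotics arm all distal arrays lay at or below 5, so that its proximal level was at least 12.9-fold higher.

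SLC5A1, the sodium/glucose cotransporter SGLT1, was 11.52, 14.45, 13.69 and 12.12 in control proximal animals 83, 88, 89 and 92 and 11.87, 12.81, 12.84 and 10.63 distally. With antibiotics it was 14.60, 14.03, 13.33 and 13.20 proximally (86, 87, 95 and 98) and 9.87, 9.50, 11.07 and 10.90 distally (85, 86, 87 and 95). With antibiotics the highest distal array (11.07) lay below the lowest proximal one (13.20), while the control segments overlapped. Over both arms SLC5A1 fell by 2.18 in distal tissue (SE 0.45, adjusted p = 0.00817), which is 4.54-fold, in 6 of 7 animals. SLC5A4, a related sugar carrier whose gene lies next to SLC5A1 in the RefSeq pig annotation, had a difference of -1.33 (SE 0.56, adjusted p = 0.214), with 5 of 7 animals lower distally.

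SLC2A1, the widely expressed glucose transporter GLUT1, lay at or below 5 on all 8 distal arrays (3.46 to 4.84) and between 4.15 and 7.99 proximally. Its proximal mean was at least 1.72-fold higher, and the fitted difference was -1.58 (SE 0.43, adjusted p = 0.0425). The highest values were those of control proximal arrays 83 (7.31) and 92 (7.99), the arrays with the lowest summed enterocyte signal. Without these 2 the difference was -0.95 (adjusted p = 0.147), and it passed in 2 of 16 fits that left out 1 array each. With the animal as a fixed effect the adjusted p was 0.0855. SLC2A2, the basolateral glucose and fructose transporter GLUT2, had a difference of 0.38 (SE 0.50, 95% interval -0.67 to 1.43) and did not pass. Its proximal values ranged from 4.46 (control animal 83) to 9.05 (antibiotics animal 98).

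SLC16A13, a monocarboxylate carrier, was 4.65, 6.43, 7.28 and 3.86 in control proximal animals 83, 88, 89 and 92 and 7.09, 7.11, 8.05 and 7.32 distally. In antibiotics animals it was 8.37, 7.77, 6.67 and 6.35 proximally (86, 87, 95 and 98) and 9.59, 9.58, 9.46 and 9.23 distally (85, 86, 87 and 95). Within each arm the distal values lay higher, apart from control proximal array 89, which exceeded 2 of the distal ones. The difference was 2.01 (SE 0.43, adjusted p = 0.0108), and all 7 animals were higher distally. The call was lost with RNA integrity as a covariate (1.71, adjusted p = 0.0726) and without the filter (adjusted p = 0.054).

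**Figure D2:**
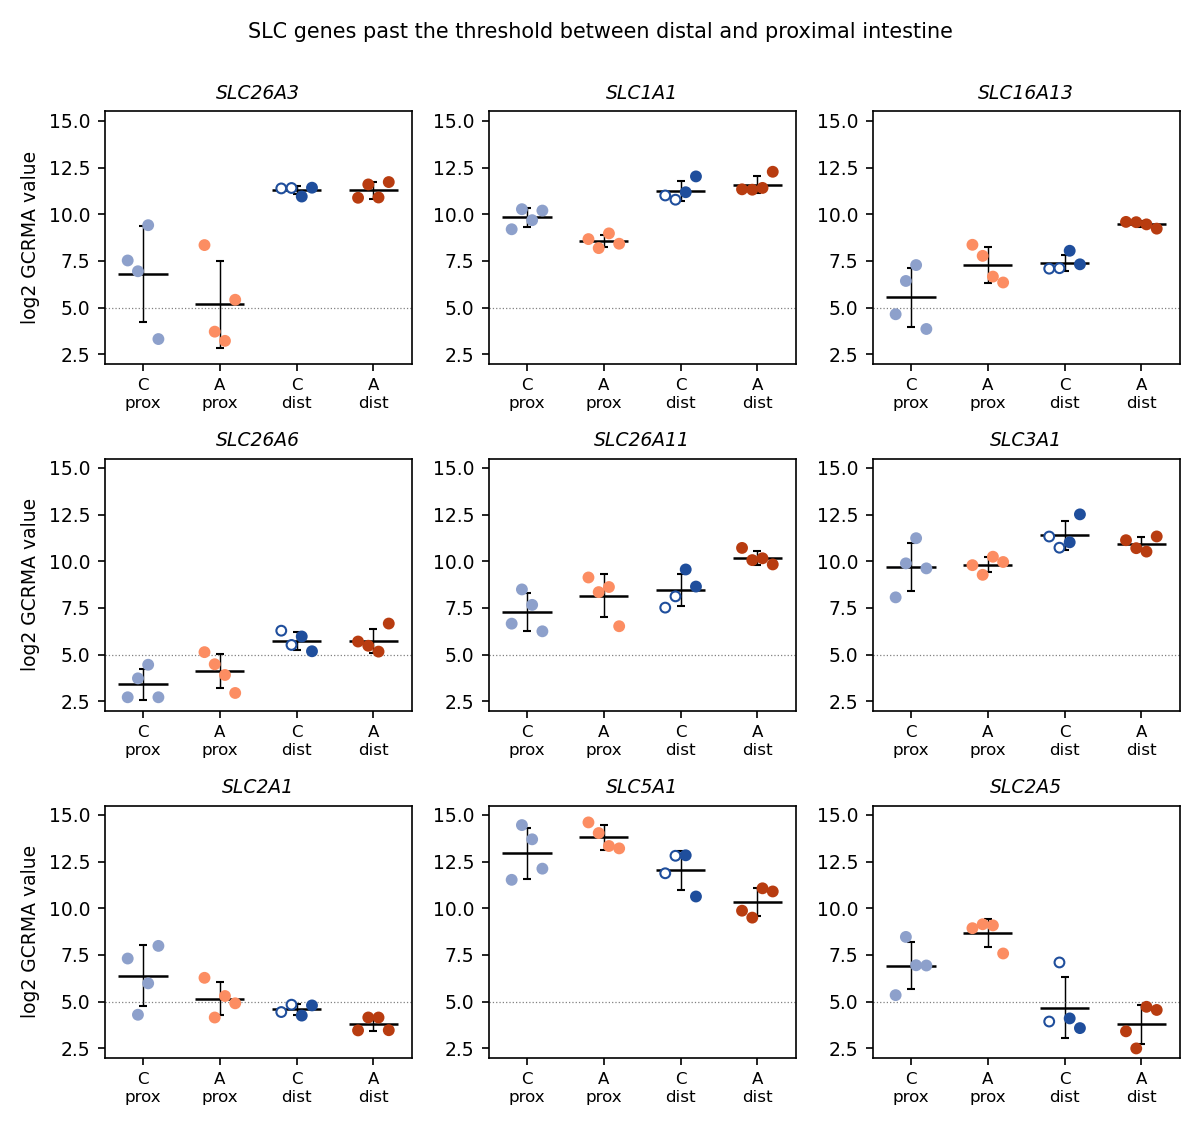
Log2 GCRMA values (vertical axis) of the 9 SLC genes past the threshold between segments, for control (C, blue) and antibiotics (A, orange) arrays of proximal and distal tissue. Each point is 1 array, bars are the mean and SD of 4 arrays, the dotted line marks a value of 5 and open points are control distal arrays 83 and 88. SLC26A3, SLC1A1 and SLC26A6 show no overlap of the segments, and the SLC5A1 segments overlap in controls but not with antibiotics.

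The classes not named so far held no call between segments in the fit without the animal, and 3 with the animal as a fixed effect. For the latter fit the share of all tested probe sets is not given here. Of 17 mitochondrial carriers 14 had a lower distal mean, with a median of -0.17 and no gene past the threshold (4 at an unadjusted p under 0.05). SLC25A37, which brings iron into mitochondria, had the most negative value, -1.04 (SE 0.35, adjusted p = 0.109), and was lower distally in 7 of 7 animals. With the animal as a fixed effect it passed, at -1.22 (SE 0.26, limma adjusted p = 0.0328). Its dimmer probe set passed, with -1.21 (adjusted p = 0.0382). Of 8 metal transporters 6 had higher distal means, with a median of 0.12. SLC11A2, the apical iron transporter DMT1, had a difference of 0.41 (95% interval -0.36 to 1.17) and SLC39A4, the zinc importer mutated in acrodermatitis enteropathica, -0.67 (-1.35 to 0.02). SLC39A14, a zinc and iron importer, had a difference of -0.47 (SE 0.43, adjusted p = 0.655) that was -0.90 and passed with the animal as a fixed effect (SE 0.21, limma adjusted p = 0.0458). Of 6 genes for vitamins, choline and nucleosides 3 were higher and 3 lower. SLC46A1, the proton-coupled folate transporter, had a difference of group means of -0.76 (SE 0.30, adjusted p = 0.183) and was lower distally in 7 of 7 animals. With the animal as a fixed effect the difference was -1.05 (SE 0.21) and passed (limma adjusted p = 0.0246). SLC28A1, a sodium-dependent pyrimidine nucleoside transporter, had a difference of 0.88 (SE 0.37, adjusted p = 0.213). SLC22A5 had one of -0.16 (95% interval -1.01 to 0.69).

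Segment differences were also taken within each arm. Among controls alone no SLC gene passed in limma (15 at an unadjusted p under 0.05), and 0.364% of all tested probe sets did. Among antibiotics animals 7 passed (5.25% of all): SLC26A3, SLC1A1, SLC16A13 and SLC35B2 were higher (3.15%) and SLC2A5, SLC5A1 and SLC25A1 lower (2.1%) in distal tissue. SLC2A5 differed by -2.24 in controls and -4.89 with antibiotics, and SLC5A1 by -0.91 and -3.46. SLC1A1 differed by 1.41 and 3.02, and SLC26A3 by 4.49 and 6.10. SLC26A6 went the other way, at 2.33 in controls and 1.63 with antibiotics. The difference between these differences was itself tested, as given below, and passed for no gene.

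The design sets antibiotics against saline in each segment. In distal tissue SLC2A8, an intracellular glucose transporter, and SLC35B2, a Golgi carrier of the sulfate donor PAPS, were higher with antibiotics, and no SLC gene was called lower. These 2 of 67 genes passed a limma adjusted p of 0.05, where 2.12% of all tested probe sets did (1.02% higher and 1.1% lower). At an unadjusted p under 0.05 there were 12 SLC genes (17.9%, against 15.8%). The SLC median was 0.13 (0.00 over all tested probe sets), and 41 of 67 means were higher (61.2%, against 50.4%).

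SLC2A8 was 8.91, 8.55, 8.03 and 6.78 in antibiotics distal animals 85, 86, 87 and 95 and 5.30, 4.62, 4.68 and 4.23 in control distal animals 83, 88, 89 and 92. The groups did not overlap, and 3 of 4 control values lay below 5. It rose by 3.36 (SE 0.48, adjusted p = 0.0015), which is 10.3-fold on these means. In proximal tissue the values were 8.39, 7.87, 8.24 and 6.62 with antibiotics (86, 87, 95 and 98) and 6.0, 7.0, 6.0 and 7.39 in controls (83, 88, 89 and 92), a difference of 1.18 (SE 0.48, adjusted p = 0.332). The control distal group was thus the lowest of the 4, with a mean of 4.71 ± 0.45 against 6.60 ± 0.71 in control proximal tissue (SD, n = 4 each). Without control distal arrays 83 and 88 the distal difference was 3.62 (adjusted p = 0.0103).

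SLC35B2 feeds the sulfation of proteoglycans and mucins in the Golgi. Its antibiotics distal values were 8.12, 8.24, 8.24 and 8.31 in animals 85, 86, 87 and 95, against 6.84, 7.28, 6.97 and 6.32 in control distal animals 83, 88, 89 and 92. It rose by 1.37 (SE 0.23, adjusted p = 0.00504), or 2.59-fold. Its proximal values were 7.12, 6.85, 7.14 and 7.06 with antibiotics (86, 87, 95 and 98) and 7.24, 6.90, 7.33 and 6.45 in controls (83, 88, 89 and 92), with a difference of 0.06 (95% interval -0.43 to 0.56). No other tested SLC35 gene passed, and of the 8 in that class 4 means were higher and 4 lower. The next highest difference was that of SLC35F5 at 0.41 (adjusted p = 0.536), and the most negative that of SLC35B1 at -0.76.

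Groups that did not overlap were more common than calls. In distal tissue 13 of 67 genes (19.4%, against 12.7% of all tested probe sets) had every antibiotics array on 1 side of every control array, 10 higher (6.4% of all) and 3 lower (6.31%). Beside SLC2A8 and SLC35B2 the higher ones were SLC11A2, SLC16A13, SLC25A46, SLC26A11, SLC2A4RG, SLC35F5, SLC37A4 and SLC46A1. The lower ones were SLC1A5, SLC25A24 and SLC2A1, the last with all 8 distal arrays below 5. SLC16A13 had the largest of these uncalled values, 9.59, 9.58, 9.46 and 9.23 with antibiotics against 7.09, 7.11, 8.05 and 7.32 in controls, a difference of 2.07 (SE 0.61, adjusted p = 0.0926). SLC37A4, the glucose-6-phosphate transporter of the endoplasmic reticulum, stood at 1.25 (SE 0.38, adjusted p = 0.11). Both passed in a fit on the 8 distal arrays alone (3.73% of all tested probe sets) and in one without control proximal arrays 83 and 92 (2.95%). SLC2A4RG, which encodes a transcriptional regulator and no transporter despite its symbol, stood at 1.01 (SE 0.42, adjusted p = 0.25).

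The transporters of nutrient uptake gave no other call in distal tissue. SLC5A1 stood at -1.70 (SE 0.63, adjusted p = 0.19), SLC2A5 at -0.88 (SE 0.77, adjusted p = 0.63) and SLC2A2 at 0.35 (SE 0.70, adjusted p = 0.867). SLC2A1 stood at -0.77, with both groups below 5. Among amino acid carriers SLC7A9 stood at -0.89 (SE 0.44), SLC3A1 at -0.47, SLC1A5 at -0.49, SLC15A1 at 0.16, SLC7A7 at 0.11 and SLC1A1 at 0.34. For ions and metals SLC26A3 stood at -0.01 and SLC26A6 at 0.01, SLC26A11 at 1.73 (SE 0.57, adjusted p = 0.14), SLC11A2 at 0.37 and SLC39A4 at -0.41. SLC46A1 stood at 1.09 (SE 0.42, adjusted p = 0.216), SLC28A1 at -0.02, SLC25A1 at 0.35 and SLC22A5 at -1.40 (SE 0.57, adjusted p = 0.238). SLC2A3, the high-affinity glucose transporter GLUT3 found in leukocytes and neurons, stood at -1.68 (SE 0.71, adjusted p = 0.255).

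Leukocyte markers moved with the arms. All 4 tested ones (CD53, LCP1, CD163 and S100A9) fell with antibiotics in distal tissue, with a median of -3.66. In proximal tissue the 4 tested markers all had lower means with antibiotics, with a median of -2.59. There 1 of them, S100A9, passed, as did 0.147% of all tested probe sets in either direction. The tested enterocyte markers had no call in either segment, with medians of -0.29 distally and 0.56 proximally. Their part in the SLC differences was not tested.

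In proximal tissue SLC25A1, the mitochondrial citrate carrier that exports citrate for fatty acid synthesis, was higher with antibiotics and was the 1 SLC gene past the threshold. Over all tested probe sets 0.147% passed. At an unadjusted p under 0.05 there were 19 SLC genes (28.4%, against 12.9%). The SLC median was 0.21 where that of all tested probe sets was -0.07, and 41 of 67 SLC means were higher (61.2%, against 43.2%).

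SLC25A1 was 10.21, 10.41, 10.12 and 9.63 in antibiotics proximal animals 86, 87, 95 and 98 and 8.13, 8.74, 8.46 and 7.96 in control proximal animals 83, 88, 89 and 92. The groups did not overlap. It rose by 1.77 (SE 0.29, adjusted p = 0.0242), which is 3.41-fold. Distally the values were 9.43, 8.49, 8.25 and 9.13 with antibiotics (85, 86, 87 and 95) and 8.78, 8.76, 8.28 and 8.08 in controls, a difference of 0.35 (SE 0.29, adjusted p = 0.616). The call did not survive the loss of antibiotics proximal array 86, 87 or 95 or of control proximal array 83 or 92, where its adjusted p was 0.0711 to 0.127 and the difference 1.65 to 1.76. Without control arrays 83 and 92 together the difference was 1.49 (adjusted p = 0.516).

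The other mitochondrial carriers gave no call. Of the 17 tested, 11 had higher means with antibiotics proximally, with a median of 0.16. SLC25A11, the oxoglutarate/malate carrier, stood at 0.57 (SE 0.24, adjusted p = 0.344) with no overlap of the groups, SLC25A12, an aspartate/glutamate carrier, at -0.49 (no overlap) and SLC25A24, an ATP-Mg/phosphate carrier, at -1.13 (SE 0.40, adjusted p = 0.255). In all, 5 of 67 SLC genes (7.46%) had groups that did not overlap in proximal tissue, where 3.05% of all tested probe sets did.

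For 5 transporters, chosen after their values were seen, control proximal arrays 83 and 92 lay on 1 side of arrays 88 and 89. SLC7A7 was 6.5 and 6.30 there against 8.88 and 7.66 in animals 88 and 89, SLC31A1, a copper importer, 10.31 and 10.32 against 12.42 and 11.20, and SLC5A4 7.51 and 7.58 against 12.49 and 9.54. SLC1A5 ran the other way, 9.18 and 8.53 against 6.26 and 7.17, as did SLC38A1, a glutamine transporter, at 9.07 and 8.49 against 7.01 and 7.01. SLC2A2 was 4.46 and 6.40 against 8.77 and 6.58, with array 92 close to 89, and SLC25A37 9.18 and 9.39 against 9.08 and 6.92, with array 89 apart. Arrays 83 and 92 are also those with the lowest summed enterocyte signal. The single enterocyte marker VIL1 hardly set them apart, at 12.95 and 13.16 against 13.27 and 13.17 in animals 88 and 89. Control proximal array 88, with FABP6 at 7.40, had the highest value of the group for SLC5A1, SLC5A4, SLC7A7 and SLC31A1.

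Leaving out these arrays moved the count of calls in proximal tissue, as did leaving out the antibiotics arrays named above. Without array 88 it was 11 genes, of which SLC1A5, SLC2A1 and SLC33A1 were lower and SLC25A1, SLC25A5, SLC2A2, SLC31A1, SLC35F5, SLC39A5, SLC5A4 and SLC7A7 higher with antibiotics, while 4.82% of all tested probe sets passed (2.5% higher and 2.32% lower). Without arrays 83 and 92 it was 0 in limma (4 at an unadjusted p under 0.05), and 0.00867% of all tested probe sets passed. In a separate fit with weights for all 16 arrays the count was 12 (8.24% of all), and in distal tissue 12 as well (14.4%). On all arrays the difference for SLC1A5 was -1.51 (SE 0.46, adjusted p = 0.192), for SLC2A2 1.72 (SE 0.70, adjusted p = 0.332), for SLC7A7 0.93 (adjusted p = 0.385) and for SLC35F5 1.08 (SE 0.28, adjusted p = 0.139).

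Other uptake genes in proximal tissue were spread on both sides of 0. SLC5A1 stood at 0.84 (SE 0.63, adjusted p = 0.623), SLC2A5 at 1.76 (SE 0.77, adjusted p = 0.351) and SLC2A1 at -1.23 (SE 0.61, adjusted p = 0.417). SLC1A1 stood at -1.27 (SE 0.32, adjusted p = 0.132) with no overlap of the groups. SLC15A1 stood at 0.86 (SE 0.41), SLC7A9 at 0.38, SLC3A1 at 0.11, SLC26A3 at -1.62 (SE 1.09), SLC26A6 at 0.71, SLC26A11 at 0.89 and SLC16A13 at 1.73 (SE 0.61, adjusted p = 0.25). SLC11A2 stood at -0.15, SLC39A4 at 0.51, SLC46A1 at 0.67, SLC28A1 at 0.83 and SLC22A5 at -0.92.

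**Figure D3:**
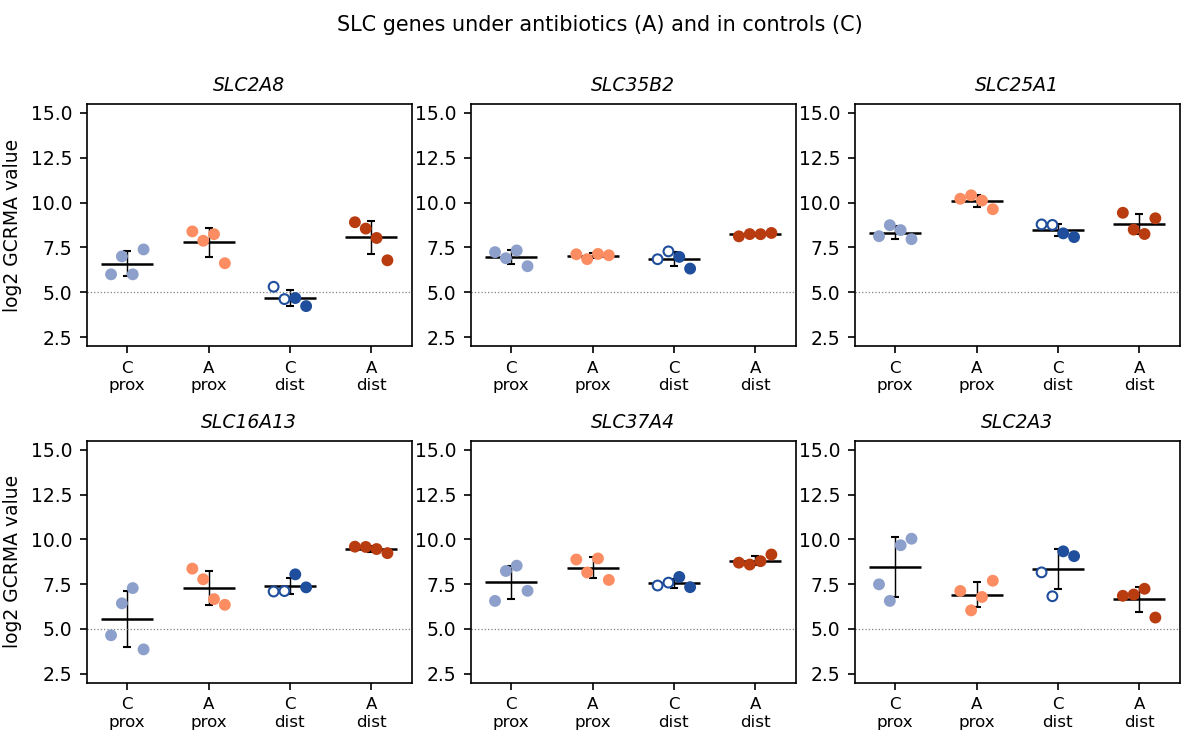
Log2 GCRMA values (vertical axis) of SLC2A8, SLC35B2, SLC25A1, SLC16A13, SLC37A4 and SLC2A3 in control (C) and antibiotics (A) arrays of each segment. Each point is 1 array, bars are the mean and SD of 4 arrays, the dotted line marks a value of 5 and open points are control distal arrays 83 and 88. SLC2A8 is lowest in control distal tissue (mean 4.71), and all 4 antibiotics distal arrays of SLC35B2 (8.12 to 8.31) lie above every other array.

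Whether the effect of antibiotics differed between the segments was tested as the distal effect minus the proximal one. No SLC gene passed in limma (8 at an unadjusted p under 0.05, 11.9% against 6.62% of all tested probe sets), and 0.191% of all tested probe sets did. The value was 2.18 (SE 0.68, adjusted p = 0.412) for SLC2A8, 1.31 (adjusted p = 0.22) for SLC35B2, -1.42 (adjusted p = 0.324) for SLC25A1, -2.55 (adjusted p = 0.514) for SLC5A1 and -2.64 (adjusted p = 0.655) for SLC2A5. SLC1A1 stood at 1.61 (adjusted p = 0.305) on its brighter probe set and at 2.30 (adjusted p = 0.0301) on its dimmer one. The effects of the 2 segments share animals, and the segments' calls are therefore not independent of each other.

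**Figure D4:**
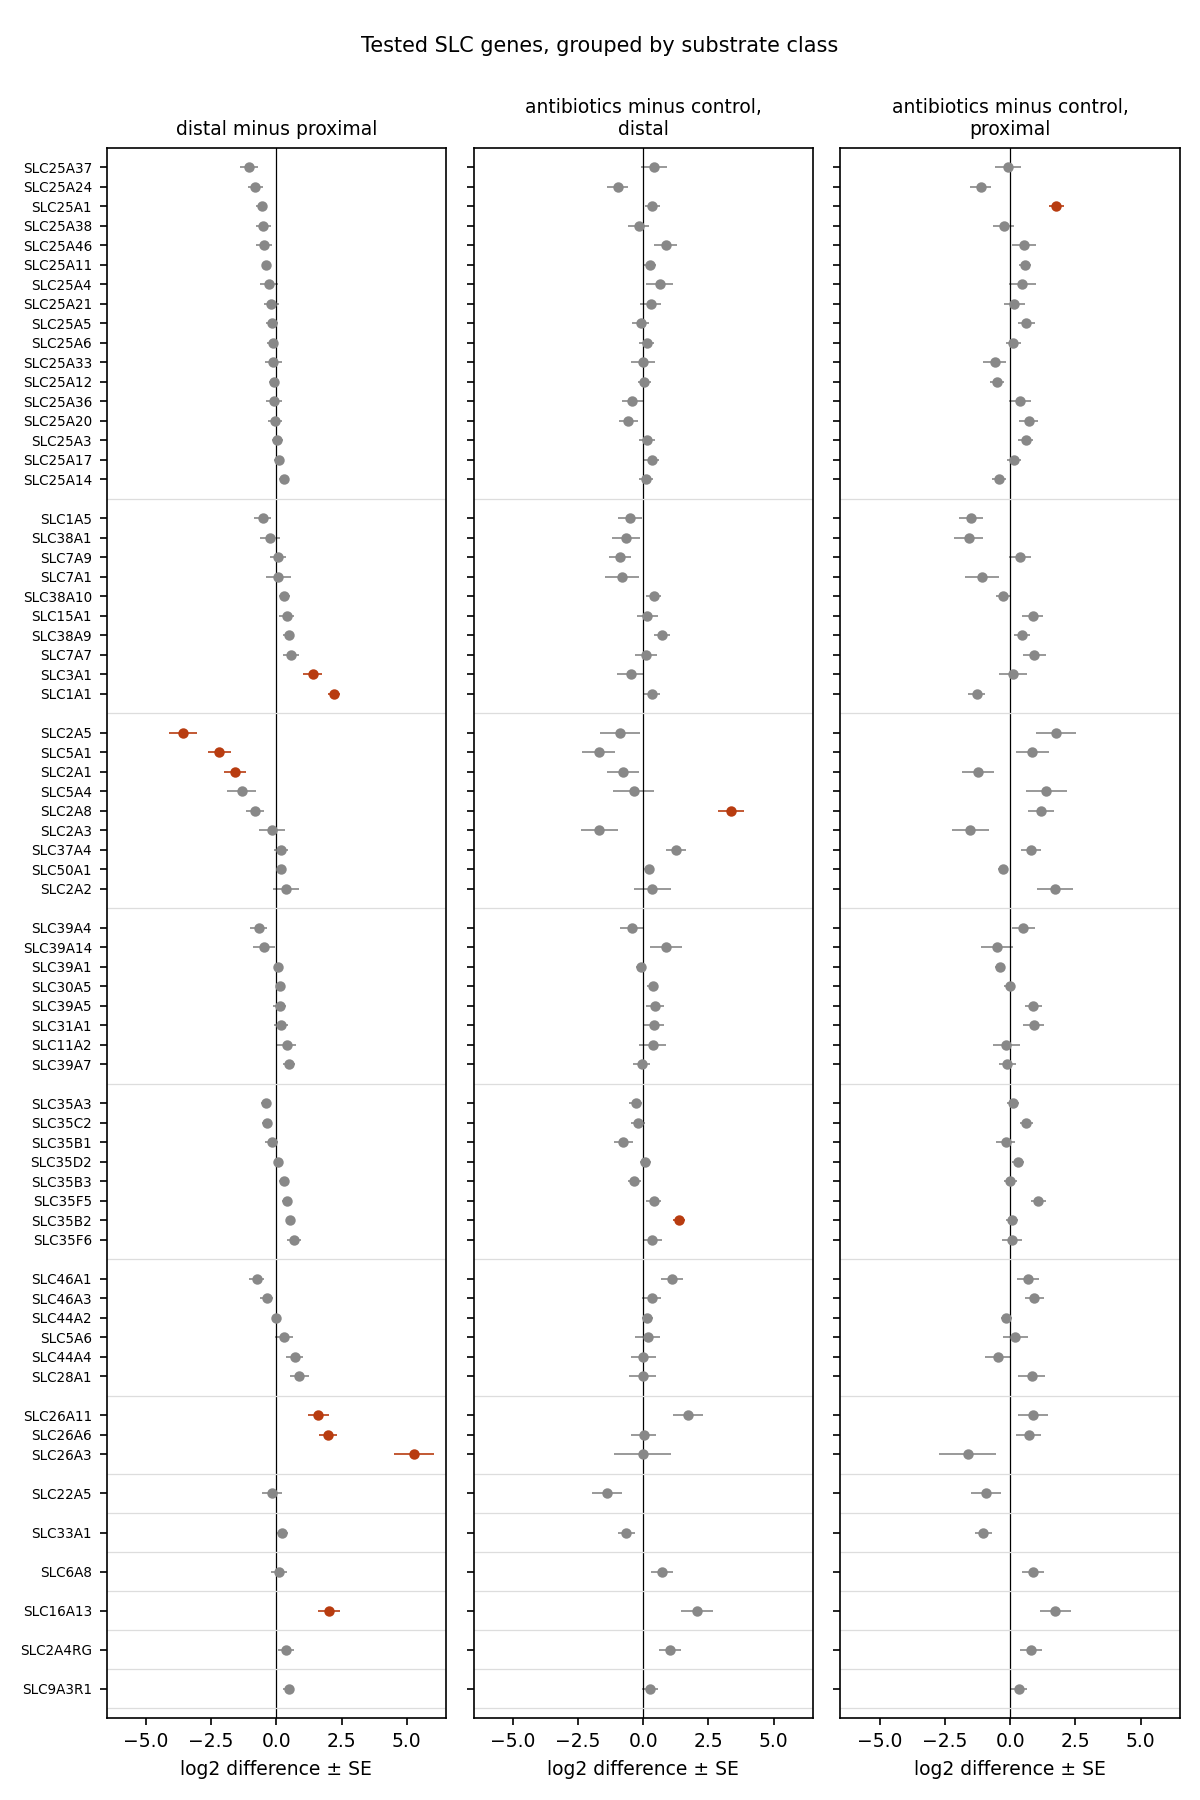
Log2 difference with its SE (horizontal axes) for each of the 67 tested SLC genes, grouped by substrate class and ordered by the distal minus proximal difference, for distal against proximal (left) and antibiotics against control in distal (middle) and proximal tissue (right). Red points passed a limma adjusted p of 0.05: 9 genes on the left, 2 in the middle and 1 on the right.

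Genes that work beside the transporters were read from a list of 43 peptidases, pumps, channels, binding proteins and transcription factors. A probe set was present for 26 and 24 were tested. Between segments 5 passed, 3 higher and 2 lower distally, where 5.52% of all tested probe sets did (3.43% higher and 2.09% lower). FABP6 and GATA4 among them were also the genes used above to check the segment labels. ENPEP (1.24, SE 0.22, adjusted p = 0.00366) and MEP1B (1.45, SE 0.32, adjusted p = 0.0146), brush border peptidases, and FABP6 (6.22, SE 0.76) were higher in distal tissue. AQP1, a water channel, fell by 1.17 (SE 0.27, adjusted p = 0.0165) and GATA4 fell by 3.08 (SE 0.34, adjusted p = 4.4e-05). No partner gene passed with antibiotics in either segment, and the median difference was -0.24 in distal and 0.33 in proximal tissue. PDZK1, a scaffold of brush border transporters, stood at 0.26 distally and 1.57 proximally, and the scaffold SLC9A3R1, itself listed under an SLC symbol, at 0.26 and 0.35.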

How the data were processed

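RNA of 16 tissue samples was hybridised to Affymetrix porcine arrays. The values are log2 expression values that the authors deposited, normalised with GCRMA, with GCOS 1.2 and limma also named, per the submitters' processing notes. No probe intensities were used. The 124 control probe sets were left out, and 11538 probe sets that exceeded 5 on 4 or more arrays were tested.

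A linear model with 4 group means was fitted with limma 3.58.1 (R 4.3.3), with empirical Bayes and Benjamini-Hochberg adjustment over all tested probe sets, at an adjusted p of 0.05. Every adjusted p given is from this model or a named alternative to it. Intervals are 95% intervals from the model. An "at least" fold sets the higher mean against the value 5 where no array of the lower group exceeded it. Figures were drawn with matplotlib 3.10.9. The fit was also run on simulated data with independent noise on each array. That setting held no correlation within animals and no array floor, so it does not cover these features.

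The SLC genes, their substrate classes and all lists were chosen with earlier results of these data known. Genes named by rule are those past the threshold and 44 transporters of nutrient uptake. Other genes were named after their values were seen. The number of arrays, 4 per group, limits the precision.

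The number in a sample name was read as the animal's. Residuals of same-numbered arrays correlated at 0.0293 to 0.526, above 0.1 in 5 of 7 animals, and the estimated correlation within animals was 0.172. The fit without the animal is the one reported. Alternatives changed the filter, the scaling, array weights, the probe set rule, the animal as a block, the RNA integrity covariate and the arrays used. No sequences were used here.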

Additional observations from a re-analysis of the deposited data

Results flagged for a closer look

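In 5 of 88 combinations of a named gene and a group, 1 array lay apart from the other 3, where chance gives about 1 in 20 (4.4 of 88). The rule sets the gap to the nearest array against the range of the group, so a small gap in a tight group is flagged too. SLC1A1 was 12.27 in antibiotics distal animal 95, against 11.32 to 11.41 in the others. SLC26A3 was 10.95 in control distal animal 89, against 11.38 to 11.42. SLC2A5 was 7.10 in control distal animal 88, against 3.59 to 4.11, and 7.58 in antibiotics proximal animal 98, against 8.93 to 9.14. The same proximal array had SLC7A7 at 7.59, against 8.42 to 8.57.

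The dimmer of the tested SLC1A1 probe sets, with a mean of 7.78, had antibiotics effects that differed between the segments, by 2.30 (SE 0.41, limma adjusted p = 0.0301). Its difference was 0.87 in distal tissue (adjusted p = 0.144) and -1.43 in proximal tissue (adjusted p = 0.0637). On the brighter probe set the effects differed by 1.61 (limma adjusted p = 0.305).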

How the results depend on the processing

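No called SLC gene changed sign under any alternative that was run. In distal tissue the 2 calls, SLC2A8 and SLC35B2, passed under every alternative, and the count was 12 with array weights (14.4% of all tested probe sets), 4 with the 8 distal arrays alone (3.73%) and 2 to 3 with 1 array left out. Leaving out control proximal arrays 83 and 92 together, chosen after seeing the data, gave 4. In proximal tissue the 1 call became 12 with array weights (8.24%), and 0 without the filter (18 at an unadjusted p under 0.05), with the 8 proximal arrays alone (10) and without arrays 83 and 92 (4). It ran from 0 to 11 with 1 array left out. The count of 11 was that without control proximal array 88, where 4.82% of all tested probe sets passed, against 0.147% in the main fit. Between segments the 9 calls became 5 without the filter, 5 with RNA integrity as a covariate and 0 within controls, and ran from 6 to 11 with 1 array left out. The covariate kept SLC1A1, SLC26A3, SLC26A6, SLC2A5 and SLC5A1, the same 5 as without the filter. SLC3A1 was lost when all probe sets of a gene were averaged (0.69, adjusted p = 0.229). The difference of the antibiotics effects had 0 calls, and 1, SLC35B2, with array weights. With the animal as a random block the counts were 2, 1, 10 and 0. With the animal as a fixed effect 9 genes passed between segments, without SLC26A11, SLC3A1 and SLC2A1 and with SLC25A37, SLC39A14 and SLC46A1. Shares of all tested probe sets are not given for the fits without the filter, with the covariate or with the animal. Nor are they given for the 8 proximal arrays alone, or for the difference of the antibiotics effects with array weights. Of the fits with 1 array left out, only that without control proximal array 88 has its share given. The counts of those fits can therefore not be read as particular to the SLC genes. The causes were not tested. Genes at the array floor allow no statement on change.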
